A study of Mus musculus with 2 samples.

Results

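Mature B cells that carried transcripts of Ighd, the constant region of IgD, or of Fcer2a, which encodes the low-affinity IgE receptor CD23, were described in 2 single-cell RNA libraries of mouse bone marrow. A barcode counted as such a cell when it held at least 1 unique molecular identifier (UMI, a tag that marks 1 captured transcript) of Cd79a, at most 1 UMI of the CD3 genes Cd3d, Cd3e and Cd3g together, at most 1 of the surrogate light chain genes Vpreb1 and Igll1 together, and either at least 1 UMI of Fcer2a or at least 2 of Ighd. Of 20322 kept barcodes 789 met this rule. They were 356 of 7955 in the library labelled Irf4-/- and 433 of 12367 in the library labelled WT. Members were thus chosen by measured UMI counts of these genes, which are given below as a description. Barcodes with fewer than 500 genes, fewer than 1000 UMIs, or 10% or more of mitochondrial UMIs had been removed first.

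The study profiled cells sorted from bone marrow as natural killer progenitors (NKP), by CD122 on the surface and none of c-kit, Sca-1, Ncr1, NK1.1 or the markers of other lineages. One library came from wild-type C57BL/6 mice and the other from mice labelled Irf4-/-. Irf4 is a transcription factor of B cell activation and plasma cell formation. Ages, mouse numbers, pooling and the extent of the Irf4 deletion are not stated in the labels. With 1 library per genotype there were no replicates, so no test was made. Every interval below is a 95% interval that covers counting error only, and a difference between the libraries cannot be told apart from one between 2 sorts or 2 droplet runs.

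B cells leave the marrow as immature cells with surface IgM and become mature in the spleen, where they add IgD, CD23 and the complement receptor CD21. Mature cells recirculate through blood, follicles and back into the marrow. They present antigen on MHC class II molecules, live on signals from BAFF and from their antigen receptor, and divide when activated.

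Promoters of 6 genes are shown because the gene groups that follow hold them: 3 interferon-induced genes with higher levels in the Irf4-/- library as labelled, 2 MHC class II genes, and the cell division gene Top2a. The sequences are from RefSeq, build GRCm38.p6, and each runs 5′ to 3′ on the gene's own strand and ends at the base before the transcription start. In the first 3, capitals mark GAAA, any 2 bases (NN), GAAA, the core of an interferon-stimulated response element, and overlapping matches run together. In the others, capitals mark CCAAT, or ATTGG where it lies on the opposite strand, the core bound by NF-Y. Isg15 (chr4:156200819-156200918, minus strand) encodes a ubiquitin-like protein, Oas1a (chr5:120907526-120907625, minus strand) an RNA sensor and Bst2 (chr8:71537473-71537622, minus strand) the membrane protein tetherin. H2-Aa (chr17:34287824-34287923, minus strand) and H2-Eb1 (chr17:34305767-34305866, plus strand) encode chains of MHC class II, and Top2a (chr11:99024190-99024309, minus strand) a topoisomerase of dividing cells.
Isg15: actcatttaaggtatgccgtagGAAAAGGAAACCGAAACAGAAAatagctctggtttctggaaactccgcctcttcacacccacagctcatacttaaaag
Oas1a: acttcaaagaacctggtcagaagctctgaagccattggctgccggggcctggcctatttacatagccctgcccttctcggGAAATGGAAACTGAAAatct
Bst2: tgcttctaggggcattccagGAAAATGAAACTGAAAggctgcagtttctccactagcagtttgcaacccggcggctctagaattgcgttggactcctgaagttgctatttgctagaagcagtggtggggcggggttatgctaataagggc
H2-Aa: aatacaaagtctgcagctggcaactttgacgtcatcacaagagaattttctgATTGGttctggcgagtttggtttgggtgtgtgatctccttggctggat
H2-Eb1: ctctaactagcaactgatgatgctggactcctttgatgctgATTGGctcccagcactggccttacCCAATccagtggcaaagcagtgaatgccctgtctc
Top2a: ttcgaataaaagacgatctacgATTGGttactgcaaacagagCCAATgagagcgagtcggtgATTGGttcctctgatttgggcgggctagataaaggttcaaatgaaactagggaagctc
Both motifs were searched on both strands of the 250 bases before each start, and a match is a description of the letters, not of binding. The first was in 3.46% of 27025 promoters and in 7 of the 14 interferon list members that had a promoter in the table. CCAAT was in 37.5% of all promoters, in 8 of 9 MHC class II genes and in 13 of 15 genes of the G2 and M phases. A further motif, GGAA, any 2 bases, GAAA, was searched too and is not marked above. It was in 2.68% of all promoters and in 1 of the 14 interferon list members. Of the others, 0 of 9 MHC class II, 0 of 15 G2 and M phase and 1 of 9 follicular genes held it.

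The cells carried B cell transcripts that CD3-positive cells lacked, and the markers of mature cells were also present, at lower shares, in other B cells, which met the same limits but had no Fcer2a and at most 1 Ighd UMI. Levels below are CPM, the gene's UMIs divided by all UMIs of the group and scaled to 1000000. H2-Aa and H2-Eb1, Bank1, an adaptor of antigen receptor signalling, and Fcmr, the IgM receptor, had no part in the rule. So that depth would not set the shares, each cell was thinned to 1000 UMIs. Pairs of values are given with the library labelled Irf4-/- first and the library labelled WT second. H2-Aa was then found in 78.9% (74.3 to 83.1) and 75.5% (71.2 to 79.5) of mature B cells, and before thinning in 95.2% and 83.6%. In cells with at least 3 CD3 UMIs and no Cd79a, which should lack it, the thinned shares were 0.060% and 0.072%, and in other B cells they were 63.2% and 21.1%. Median depth was 9913 and 7248 UMIs in those cells and 4470 and 3040 in mature B cells. Of the rule genes, Fcer2a was in 12.4% and 29.3% of thinned mature B cells and in 0 of 6639 and 0 of 11094 thinned CD3-positive cells, where a count of 0 allows up to 0.0452% and 0.0270% of cells with a UMI at that depth. Before thinning, 0.121% and 0.117% of those cells held one. Fcmr was in 37.4% and 49.2% of mature and 19.5% and 30.7% of other B cells. Bank1 was in 36.8% and 34.6% of mature and 23.99% and 21.1% of other B cells. Ms4a1, which encodes CD20, was shared by both groups, with 2201 and 1864 CPM in mature and 2539 and 2298 CPM in other B cells.

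**Figure D1:**
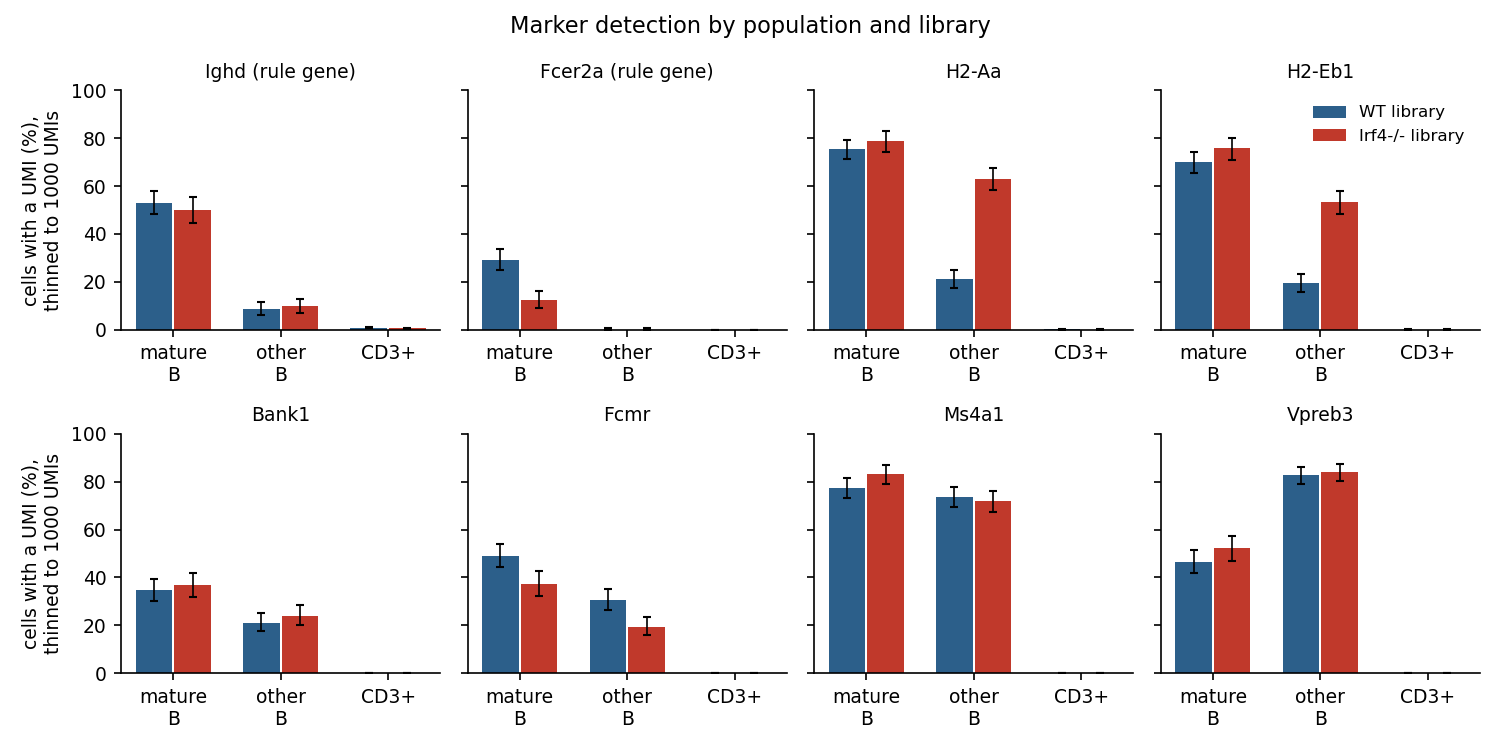
Share of cells with at least 1 UMI after thinning every cell to 1000 UMIs, for 8 genes, in mature B cells, other B cells and CD3-positive cells of each library; bars show 95% Clopper-Pearson intervals. H2-Aa is near 79% and 76% of mature B cells and near 0 in CD3-positive cells, and Ighd and Fcer2a are the genes of the rule.

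Markers of T, natural killer and megakaryocyte cells were low or at 0. The rule itself limits the CD3 genes. The other 12 T cell genes summed to 40.7 and 56.8 CPM, against 3858 and 4279 CPM in CD3-positive cells, and 17 and 32 mature B cells held 1 CD3 UMI. Natural killer and innate lymphoid markers summed to 36.3 and 32.0 CPM against 2425 and 1816 CPM in CD3-positive cells. Monocyte and macrophage markers summed to 75.98 and 71.1 CPM and neutrophil markers to 9.31 and 17.6 CPM, and the 5 megakaryocyte genes were at 0 in both libraries. Some other marker lists were not low. Progenitor B cell markers summed to 1345 and 991 CPM, against 3727 and 3299 CPM in other B cells. Plasmacytoid dendritic cell markers summed to 673 and 540 CPM, against 864 and 619 CPM, and plasma cell genes to 448 and 468 CPM, against 561 and 937 CPM. Erythroid genes summed to 32.8 and 1328 CPM, and 1 cell of the library labelled WT held 1938 haemoglobin UMIs. At least 1 haemoglobin UMI was found in 34 and 59 cells, and the highest cell of the other library held 5. Among the genes of the sort, Il2rb, which encodes CD122, had 7 and 2 UMIs, Kit and Ncr1 had none, and Klrb1c, which encodes NK1.1, had 1 and 0. Ly6a, which encodes Sca-1, had 75 and 122 UMIs. The cells were nearly without the transcript of the marker on which the sort was positive; why they were in the sort was not tested. The libraries held 8147 and 12732 deposited barcodes, and mature B cells gave 2040138 and 1532041 UMIs in all. No mature B cell barcode was shared by the libraries, although 25 kept barcodes were.

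The count of Irf4 itself did not mark the genotype. It was 118 UMIs in the library labelled Irf4-/- and 57 in the library labelled WT, or 57.8 and 37.2 CPM, a log2 ratio of 0.64 (0.17 to 1.12). A UMI of Irf4 was found in 63 and 47 cells. Over the alternatives computed, the ratio ran from 0.25 to 1.31, the latter among Fcer2a-positive cells only. In each library 5 cells held 29.7% and 22.8% of the Irf4 UMIs. The gene lies at chr13:30749226-30766976 (mm10). As tags of this kit come from the 3′ end and the deleted part is unknown here, this count does not check the genotype, and each direction below is between the libraries as labelled.

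Mature B cells were 4.48% of kept cells (4.03 to 4.95) in the library labelled Irf4-/- and 3.50% (3.18 to 3.84) in the library labelled WT. Cells of the first library were deeper, with a median of 4470 UMIs against 3040, and a deeper cell meets a threshold of UMIs more readily. When the rule was applied to cells thinned to 1000 UMIs, the shares were 1.27% and 1.58%, in the opposite order, so no order is read from the shares. Among B cells that met the CD3 and surrogate light chain limits, mature cells were 45.8% and 48.5%. The remaining such cells, 421 and 460, had no Fcer2a and at most 1 Ighd UMI and are called other B cells.

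The libraries differed in how cells entered the rule. Cells with Fcer2a and at least 2 Ighd UMIs were 27.2% (22.7 to 32.2) of mature B cells in the library labelled Irf4-/- and 39.5% (34.9 to 44.3) in the library labelled WT. Cells with Ighd but no Fcer2a were 55.9% (50.6 to 61.1) and 35.3% (30.8 to 40.0). Cells with Fcer2a and at most 1 Ighd UMI were 16.9% and 25.2%. Fcer2a had 188.7 CPM in the first library and 377 CPM in the second, and Ighd 638 and 852 CPM, values that the rule itself shapes.

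Cells that entered the rule by both genes had the lowest Vpreb3 and the highest H2-Aa of the 3 routes in both libraries. Vpreb3, a chaperone of the antigen receptor in immature B cells, had 509.9 and 661 CPM in cells with both genes, 1671 and 834 CPM in those with Ighd alone, and 946 and 1208 CPM in those with Fcer2a and little Ighd. H2-Aa was highest in cells with both genes, at 2887 and 3620 CPM, against 2039 and 2245 CPM with Ighd alone and 1572 and 1666 CPM with Fcer2a and little Ighd. Just inside the threshold, cells with exactly 2 Ighd UMIs and no Fcer2a (82 and 51 cells) had 2313 and 1245 CPM of Vpreb3. Just outside it, cells with 1 Ighd UMI (152 and 122 cells) had 2660 and 2106 CPM of Vpreb3. The Vpreb3 levels just inside the threshold lay between those of all cells with Ighd alone and those just outside it, in both libraries.

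Against other B cells, mature B cells carried more follicular and antigen presentation transcripts and fewer transcripts of immature B cells. The cells were divided by their own counts, so the contrast is a description. Of 8239 genes, 59 (0.716%) were at least 2-fold higher in mature B cells in both libraries and 100 (1.21%) at least 2-fold lower. Scaled by the median of gene ratios in place of total UMIs, these counts were 78 and 79. Ms4a4c, a CD20-like membrane protein, had 225 and 179 CPM in mature against 87.1 and 40.5 CPM in other B cells, log2 ratios of 1.37 and 2.14 in the libraries labelled Irf4-/- and WT. Shisa5, a p53-induced membrane protein, had 1.29 and 1.73, and Man1a, a Golgi mannosidase, 1.55 and 1.20. Shisa5 and Gimap6, a lymphocyte GTPase with 0.99 and 1.44, were also abundant in CD3-positive cells. In mature B cells they stood at 52.5% to 95.8% of their level there. Ms4a4c was shared too, with 191.5 and 146.0 CPM in CD3-positive cells. Its mature B cell level was 117.7% and 122.5% of that. Stap1, an antigen receptor adaptor, had 1.19 and 1.42, Btla, an inhibitory receptor, 0.91 and 0.99, and Ltb, which encodes lymphotoxin beta, 0.76 and 1.58. CD3-positive cells also carried Ltb, at 666 and 716 CPM.

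The lowest genes of the contrast included genes of earlier B cells. Sox4, a factor of B cell progenitors, had 45.1 and 52.2 CPM in mature against 128.6 and 195 CPM in other B cells, log2 ratios of -1.51 and -1.90. Vpreb3 had -1.40 and -1.69, Atp1b1, a subunit of the sodium pump, -2.02 and -2.31, and Coq7, an enzyme of ubiquinone synthesis, -1.87 and -2.23. Rag1, the recombinase of antigen receptor genes, was nearly gone, with 4.90 and 5.22 CPM against 87.1 and 89.2 CPM. Of the 10 measured genes of immature and transitional B cells, 8 were lower in mature B cells in both libraries, as were 38.1% of all genes, and none was higher in both, with list medians of -0.76 and -1.13. Cd93, a marker of immature cells, had 32.4 and 35.2 CPM against 98.8 and 85.7 CPM.

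Follicular maturation genes went the other way. Without the rule genes, 11 of 12 were higher in mature than in other B cells in both libraries, with medians of 0.83 and 0.95, where 22.9% of the 8239 genes were above 0 in both. Cr2, which encodes CD21, had 51.5 and 78.98 CPM against 16.5 and 19.4 CPM, and Zfp318, which controls the splicing of IgM to IgD transcripts, had ratios of 1.43 and 1.39. All 12 MHC class II genes were higher, but by unequal amounts, with medians of 0.59 in the library labelled Irf4-/- and 1.41 in the library labelled WT. Bcl2, an inhibitor of apoptosis, had 1.74 and 1.33.

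**Figure D2:**
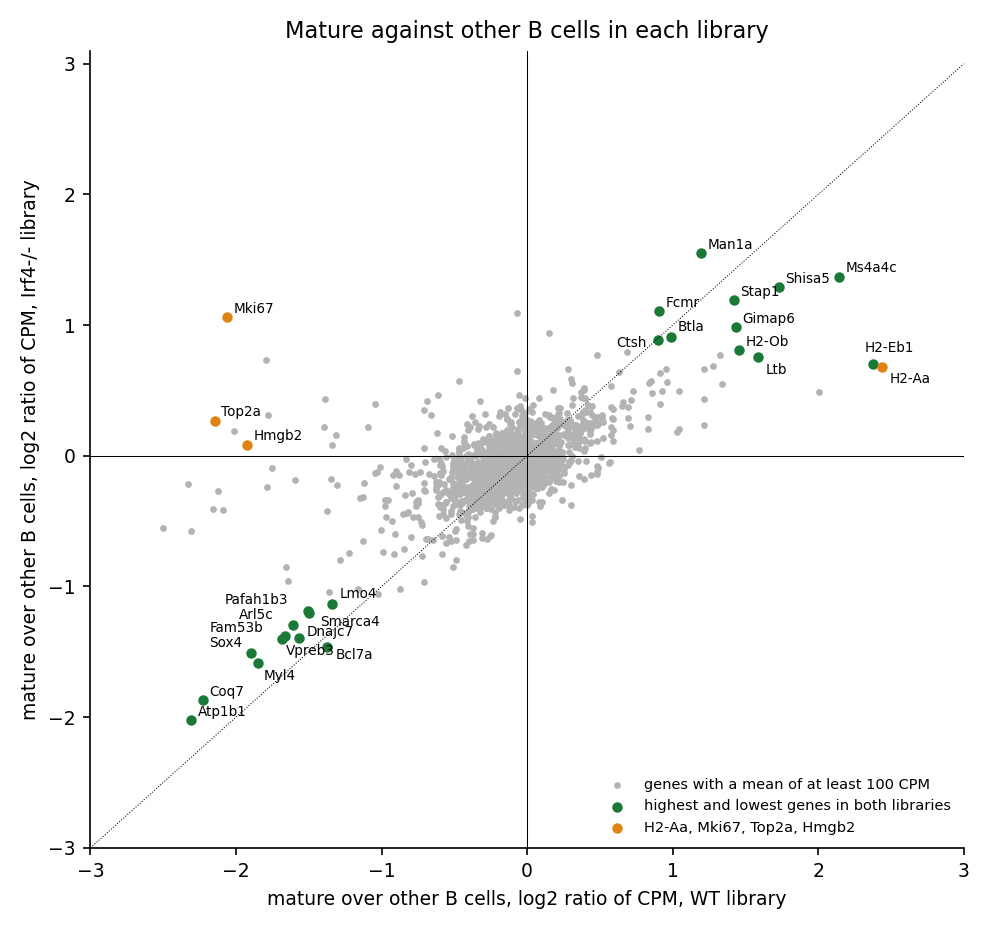
Log2 ratio of CPM, mature over other B cells, in the library labelled WT (x axis) and the library labelled Irf4-/- (y axis), for genes with a mean of at least 100 CPM over the 4 groups, and the dotted line marks equal ratios. Ms4a4c lies at 2.14 and 1.37, H2-Aa lies below the line at 2.44 and 0.68, and Mki67 lies at -2.06 and 1.06.

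MHC class II transcripts were closer between the libraries in mature than in other B cells. H2-Aa had 2188 and 2614 CPM in mature B cells of the libraries labelled Irf4-/- and WT, a log2 ratio of -0.26 (-0.32 to -0.19), and 1364 and 483 CPM in other B cells, a ratio of 1.497. H2-Eb1 had -0.23 in mature and 1.45 in other B cells. Ciita, the master regulator of these genes, had 132 and 127 CPM in mature B cells, a ratio of 0.06 (-0.21 to 0.33), and 75.4 and 24.1 CPM in other B cells, a ratio of 1.65. The difference between the ratios of the 2 cell groups was not tested. Over the list, 2 of 12 members were above 0 in mature B cells, against 53.5% of all genes, with a median of -0.12. In other B cells 11 of 11 were above 0, with a median of 0.86. The share of all genes above 0 in other B cells was not computed. H2-Eb2, a class II gene of low level, was the member farthest from 0 in mature B cells, with 48 and 73 UMIs and a ratio of -1.02.

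Between the libraries, mature B cells were compared over 8592 genes with at least 20 UMIs in all. Of these, 371 (4.32%) were at least 2-fold higher and 151 (1.76%) at least 2-fold lower in the library labelled Irf4-/-. The median gene had a log2 ratio of 0.027, and 53.5% of genes were above 0. Most of the genes past 2-fold were of low level, since among 1344 genes with a mean of at least 100 CPM 11 (0.818%) were higher and 6 (0.446%) lower. In other B cells 3.21% of 8670 genes were at least 2-fold higher and 3.49% at least 2-fold lower.

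Interferon-induced genes stood higher in mature B cells of the library labelled Irf4-/-. Ifi27l2a (chr12:103442167-103443680, minus strand), a small interferon-induced membrane protein, had 3557 and 943 UMIs, or 1744 and 616 CPM, a log2 ratio of 1.502 (1.40 to 1.61), and was found in 312 of 356 and 240 of 433 cells. Oas1a had 45 and 6 UMIs, a ratio of 2.49 (1.26 to 4.01), and Isg15 72 and 20 UMIs, a ratio of 1.44 (0.70 to 2.23). Oas2, another sensor of double-stranded RNA, had 31 and 2 UMIs in 30 and 2 cells, a ratio of 3.54 (1.57 to 6.65). Of the 19 measured members of the interferon list, 17 were above 0, with a median of 0.74. Of these 19, 7 were at least 2-fold higher and none was 2-fold lower. Over all genes, 53.5% were above 0, 4.32% at least 2-fold higher and 1.76% at least 2-fold lower. Bst2 had 134.8 and 71.1 CPM. Slfn2, a regulator of lymphocyte quiescence, had -0.55 (-0.71 to -0.40), and Ifit2, another member below 0, had 13 and 16 UMIs. The list median was 0.72 in other B cells and 0.14 in CD3-positive cells, but Isg15 itself had -0.06 in other B cells. In CD3-positive cells 13 of 19 members were above 0, and the share of all genes above 0 in those cells was not computed. There Ifi27l2a had 0.83 and Oas1a 1.20, but Oas2 had -1.01.

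Ifit3 and Ifit1bl1, interferon-induced genes that lie next to each other (chr19:34583531-34588731 and chr19:34592891-34601956), had the opposite direction. Ifit3 had 0 and 19 UMIs and Ifit1bl1 0 and 16 UMIs, so neither reached the 20 UMIs needed to enter the list's counts. With each 0 set to a floor of 3 UMIs over the group, they were 8.43-fold and 7.10-fold lower in the library labelled Irf4-/-. These values leave out the counting error of the 19 and 16 UMIs and are not lower bounds. In CD3-positive cells Ifit3 had 0.221 and 29.3 CPM and Ifit1bl1 0 and 30.4 CPM, so the same direction was present outside B cells.

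Genes of MHC class I shared the direction of the interferon list. H2-Q7, a nonclassical class I gene with near-identical neighbours between which reads can be split, had 372 and 192 CPM, a ratio of 0.96 (0.76 to 1.15), and was found in 288 and 180 cells. B2m, the light chain of class I, had 1399 and 944 CPM, a ratio of 0.57. In all 14 of 16 class I pathway genes were above 0, against 53.5% of all genes, with a median of 0.26. The median was 0.61 in other B cells and 0.33 in CD3-positive cells. Irf9, a DNA-binding subunit of the complex that carries the interferon signal to the nucleus, had 103 and 55.5 CPM.

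Among the lowest genes in the library labelled Irf4-/- was a surface molecule of B cells. Cd38 (chr5:43868553-43912375, plus strand), an ectoenzyme and receptor that consumes NAD, had 127 and 272 UMIs, or 62.3 and 178 CPM, a ratio of -1.51 (-1.83 to -1.20). It was found in 88 of 356 and 184 of 433 cells. In the library labelled WT its level was about equal in every route, between 163 and 196 CPM, and 186 CPM in other B cells. In the library labelled Irf4-/- it was 81.2 CPM in cells with Ighd and Fcer2a, 54.7 CPM in those with Ighd alone and 29.2 CPM in other B cells. CD3-positive cells had 23.6 and 11.5 CPM.

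March1, a ubiquitin ligase that removes MHC class II and CD86 from the cell surface, had 80.9 and 212 CPM, a ratio of -1.39 (-1.67 to -1.12). Ctsh, a lysosomal protease, had 145 and 294 CPM, and Cybb, the catalytic subunit of the phagocyte oxidase, 88.7 and 149 CPM. S100a10, a calcium-binding protein, had -0.92, Rgs2, an inhibitor of G protein signals, -0.84 (-1.55 in Fcer2a-positive cells only), and Txnip, a regulator of glucose uptake, -0.81. All 12 lowest genes, from -1.51 to -0.72, were below 0 in other B cells too, but not all clearly so. Fchsd2, with -0.82 in mature B cells, had -0.03 (-0.32 to 0.26) in other B cells, an interval that includes 0.

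**Figure D3:**
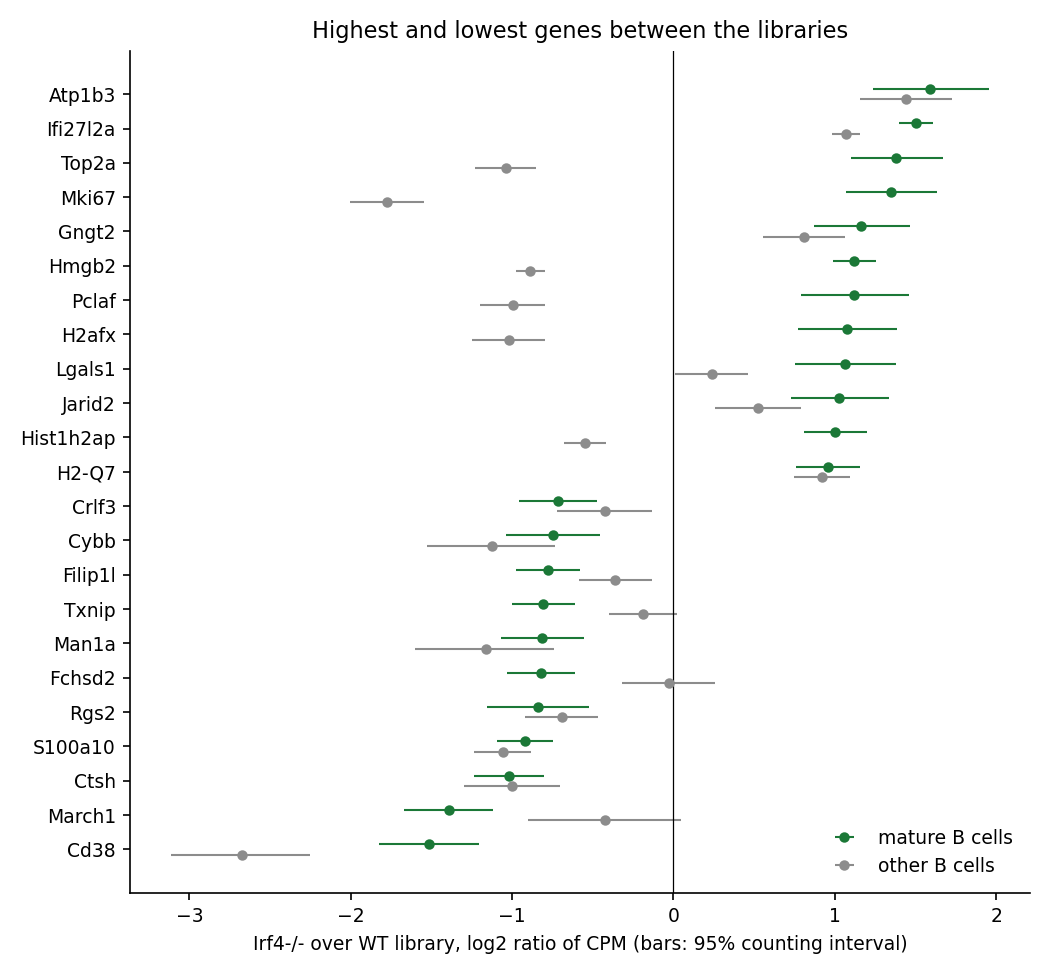
Log2 ratio of CPM between the libraries, Irf4-/- over WT as labelled, for the 12 highest and 11 of the 12 lowest genes with a mean of at least 100 CPM in mature B cells, beside the same ratio in other B cells; bars are 95% counting intervals. The 11 lowest genes shown are below 0 in both groups, Fchsd2 only at -0.03 in other B cells. Of the 12 highest, 6, the genes of dividing cells, are below 0 in other B cells.

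Follicular genes as a group were lower in the library labelled Irf4-/-. Without the rule genes 2 of 12 were above 0, against 53.5% of all genes. The median of the 12 was -0.36, against 0.027 over all genes and -0.12 for the same list in other B cells. The full list of 14, rule genes included, had -0.39 in mature B cells and -0.37 in CD3-positive cells, with 2 of 14 above 0 in each. The share of all genes above 0 in CD3-positive cells was not computed. Ccr7, the receptor that draws B cells to the edge of the T zone, had 54.9 and 96.6 CPM, a ratio of -0.82 (-1.18 to -0.45), and -0.89 in other B cells and -0.72 in CD3-positive cells. Ccr6, a chemokine receptor, had 24 and 36 UMIs and Cr2 105 and 121 UMIs, ratios of -0.998 and -0.62. Among Fcer2a-positive cells only, the Ccr6 ratio was -0.24. Klf2, a factor of quiescence and recirculation, had 985 and 971 CPM, and S1pr1, the receptor that drives exit from tissues, 122 and 119 CPM. Mef2c, a transcription factor of B cell survival, had 701 and 1035 CPM, a ratio of -0.56 (-0.67 to -0.46). Of the complement and Fc receptor genes without the rule gene Fcer2a, none of 8 was above 0, with a median of -0.43.

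Genes of immature cells were mixed. Cd24a, a surface glycoprotein high on immature B cells, had 766 and 417 CPM, a ratio of 0.88 (0.74 to 1.01), and Vpreb3 1215 and 865 CPM, a ratio of 0.49. Cd93 had 32.4 and 35.2 CPM and Sox4 45.1 and 52.2 CPM, with intervals that include 0. The list stood at a median of 0.43 with 6 of 10 members above 0, against 53.5% of all genes. Cells with Ighd alone were more frequent in the library labelled Irf4-/- and had its highest Vpreb3 level. Among Fcer2a-positive cells only, the Vpreb3 ratio was -0.37. Cd24a was higher in each route, at 589 and 271 CPM in cells with both genes and 825 and 472 CPM in cells with Ighd alone.

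Apoptosis regulators differed member by member. Bcl2 had 98 and 203 UMIs, or 48.0 and 133 CPM, a ratio of -1.46 (-1.83 to -1.11), in 73 and 138 cells. CD3-positive cells had 566 and 559 CPM of Bcl2, and the mature B cell level was 8.48% and 23.7% of that. Bcl2a1b and Bcl2a1d, inhibitors of apoptosis induced by antigen receptor and NF-kappaB signals, had 269 and 73 UMIs and 180 and 21 UMIs, ratios of 1.47 and 2.69. These are near-identical copies between which reads can be split. In the library labelled Irf4-/- 5 cells held 55.0% of the Bcl2a1b UMIs and 52.2% of the Bcl2a1d UMIs, and without cells over 2 times the median depth the ratios were 0.52 and 1.63. Of 11 measured family members 5 were above 0, 3 were at least 2-fold higher and 1 at least 2-fold lower. Over all genes these shares were 53.5%, 4.32% and 1.76%. Bcl2l1, another inhibitor, had 33 and 11 UMIs, and Mcl1, a short-lived inhibitor, 879 and 946 CPM.

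Some activation genes stood higher in the library labelled Irf4-/- as well. Myc, a factor of growth, had 74 and 18 UMIs in 46 and 15 cells, a ratio of 1.63 (0.87 to 2.46), and 2.75 in Fcer2a-positive cells only. Traf1, an adaptor induced by NF-kappaB, had 31 and 11 UMIs. Ccl22, a chemokine that attracts T cells, picked once its values were known, had 43 and 0 UMIs, all in 5 cells. Ccl22 is also a marker of activated dendritic cells and gave 43 of the 49 UMIs of the dendritic cell list in that library, and whether such cells had a part in these counts was not tested. As a whole the immediate-early list was centred near 0, at 0.07 with 10 of 17 above 0. The BAFF, CD40 and NF-kappaB list stood at 0.02 with 8 of 15 above 0. Over all genes 53.5% were above 0, so both counts were near that share.

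Antigen receptor signalling and B cell identity genes differed little. Cd79a, the signalling chain used in the rule, had 3679 and 3681 CPM. Of 28 signalling genes 10 were above 0, none was past 2-fold, and the median was -0.05. Syk, the kinase at the receptor, had 330 and 275 CPM, and Cd72, an inhibitory coreceptor, 476 and 322 CPM, a ratio of 0.57. Of 22 B cell transcription factors 9 were above 0. Pax5, the factor of B cell commitment, had 393 and 422 CPM, and Irf8, which shares DNA sites with Irf4, 481 and 362 CPM, a ratio of 0.41 (0.26 to 0.56). Oxidative phosphorylation genes had a narrow positive median of 0.17, against 0.26 in CD3-positive cells. In mature B cells 20 of 22 were above 0, against 53.5% of all genes.

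**Figure D4:**
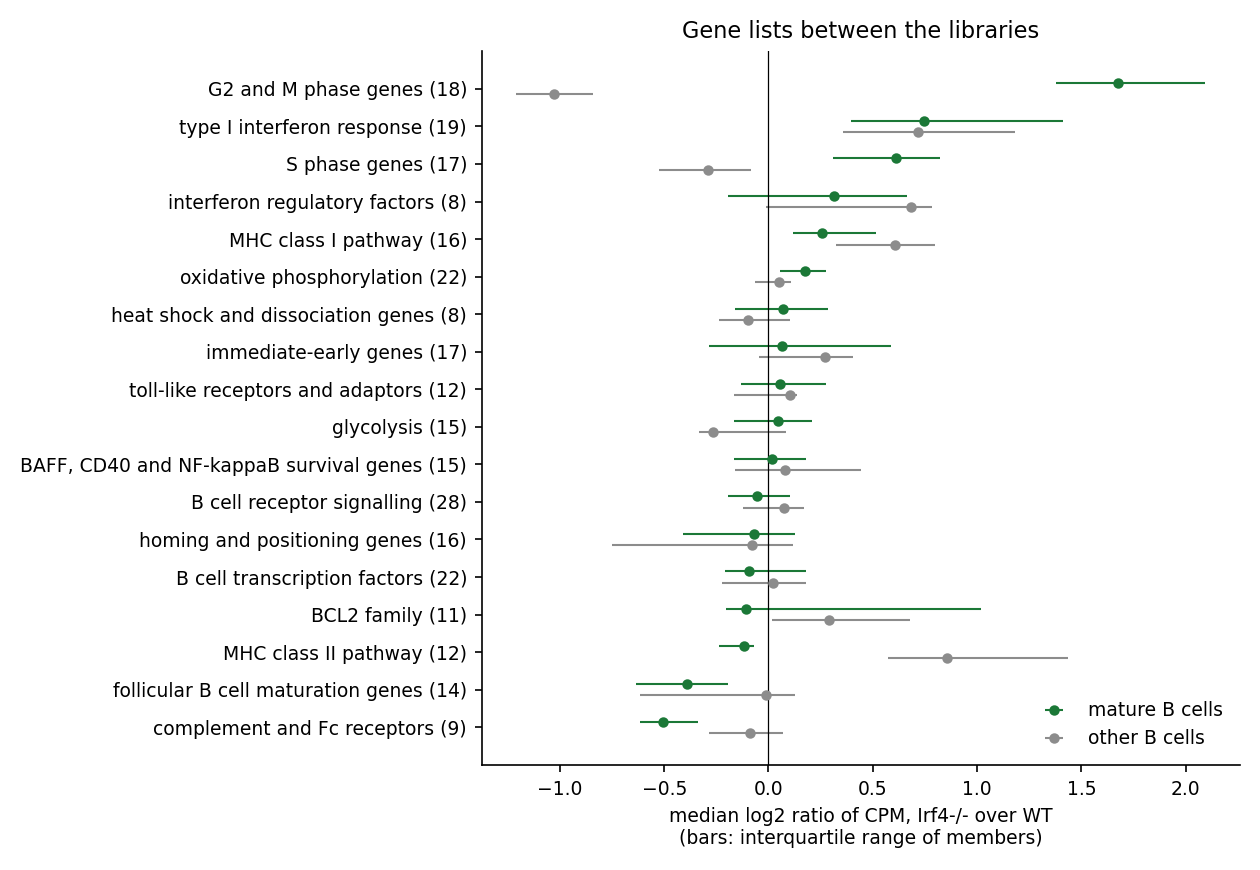
Median log2 ratio of CPM between the libraries, Irf4-/- over WT as labelled, for 18 gene lists in mature and other B cells, with the number of members measured in mature B cells in brackets; bars are the interquartile range of the members. The G2 and M phase list stands at 1.68 in mature and -1.03 in other B cells, and the interferon list at 0.74 and 0.72. Lists are plotted with any rule genes they hold.

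Cell division genes had the highest median among the 18 lists plotted. All 18 genes of the G2 and M phases were at least 2-fold higher in the library labelled Irf4-/-, against 4.32% of all genes, with a median of 1.68. Mki67, the proliferation antigen, had 468 and 138 UMIs, or 229 and 90.1 CPM, a ratio of 1.35 (1.07 to 1.63). Ube2c, which marks mitotic proteins for degradation, had 290 and 26 UMIs, a ratio of 3.07. The direction was opposite in other B cells, where none of 18 was above 0 and the median was -1.03. The share of all genes above 0 in other B cells was not computed. In CD3-positive cells the median of the list was 0.93. S phase genes had 0.61 in mature and -0.29 in other B cells.

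Few cells held most of these UMIs. Cells with at least 2 UMIs of Mki67 and Top2a together were 26 of 356 (7.30%, 4.83 to 10.5) and 10 of 433 (2.31%, 1.11 to 4.21). They held 93.2% and 72.5% of the list's UMIs. Among other B cells such cells were 20 of 421 (4.75%, 2.93 to 7.24) and 37 of 460 (8.04%, 5.73 to 10.9), with intervals that overlap. Dividing mature B cells had median depths of 13870 and 9726 UMIs, against 4386.5 and 3026 for the rest. After thinning to 1000 UMIs, cells with at least 1 UMI of the 2 genes, a lower limit, were 5.62% and 2.08% of mature B cells. Deeper cells meet a UMI threshold more readily, and what the split into mature and other B cells adds to these shares was not tested. Of the 26 and 10 dividing cells, 10 and 1 had Fcer2a. Their median Cd79a was 38 and 28 UMIs against 18 and 12 in the rest, and whether some were 2 cells in 1 droplet was not tested. Without dividing cells, Hmgb2 and H2afx, chromatin genes of dividing cells, had ratios of -0.41 and -0.31 in place of 1.12 and 1.07.

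**Figure D5:**
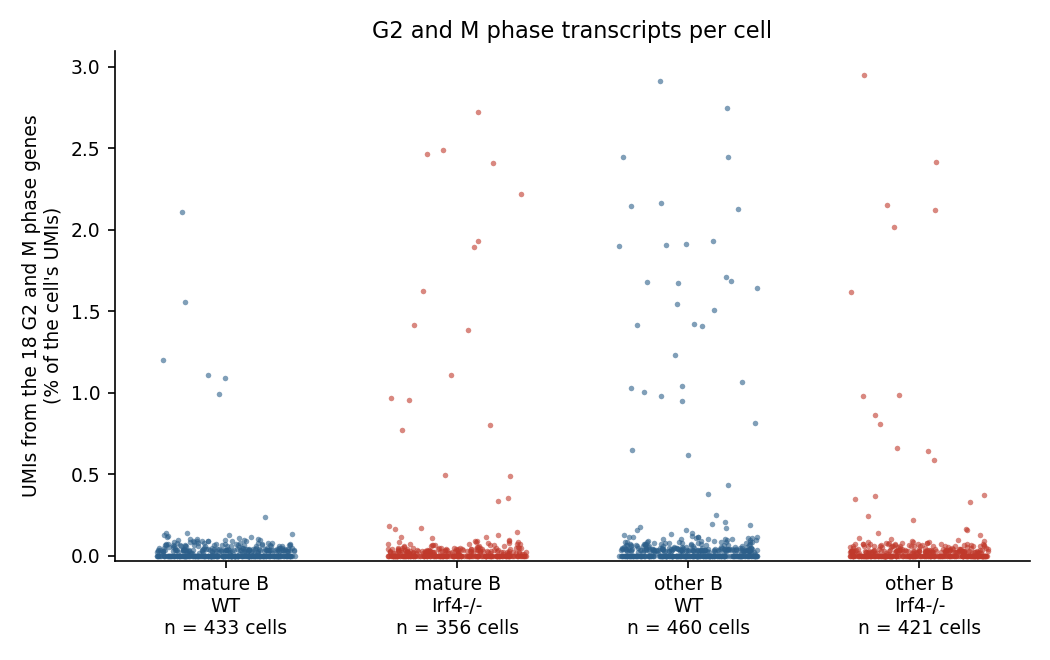
Share of each cell's UMIs (%) that came from the 18 G2 and M phase genes, 1 point per cell, spread sideways at random, in mature and other B cells of each library. Most cells lie near 0, and a minority of cells in each group lies far above the rest.

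Other genes among the 12 highest are not known for cell division. Atp1b3, a subunit of the sodium pump, had 328 and 82 UMIs, or 161 and 53.5 CPM, a ratio of 1.59 (1.23 to 1.95), and 1.44 in other B cells. CD3-positive cells did not share it, with 312 and 371 CPM. Gngt2, a G protein subunit, had 187 and 83.5 CPM and was found in 187 and 100 cells. Lgals1, a galectin, and Jarid2, a partner of the Polycomb complex, had ratios of 1.06 and 1.03. Without dividing cells the Lgals1 ratio was 0.31, and without cells over 2 times the median depth 0.33.

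Heavy chain transcripts were mostly of IgM and IgD. Ighm was the most abundant heavy chain constant gene in 338 of 356 and 386 of 433 cells, and Ighd in 18 and 47. No cell held a UMI of Ighg1, Ighg2b, Ighg2c or Ighe, which allows shares of up to 0.843% and 0.693% of cells with a UMI. Igha was found in 6 and 7 cells and Ighg3 in 1 and 3, with 6 and 7 and 2 and 4 UMIs, and was the most abundant heavy chain gene in none. Ighd UMIs were 18.04% and 23.3% of Ighm UMIs, a ratio the rule helps to set. Ighm was also found in 16.03% and 19.6% of thinned CD3-positive cells, at 178 and 213 CPM against 3536 and 3661 CPM in mature B cells. Jchain, which joins IgM and IgA into polymers in plasma cells, had 0 UMIs in both libraries.

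Kappa light chains were in the majority. Igkc exceeded the summed lambda constant genes in 80.8% (76.4 to 84.8) of called cells of the library labelled Irf4-/- and 71.6% (67.0 to 75.8) of the library labelled WT. A call that asked for at least 5 UMIs of 1 class and 10 times the other left 298 and 368 cells without a call, and gave 62.1% and 23.1% of the few others as kappa. Igkc had 9441 and 8888 CPM. Iglc2 and Iglc3 are near-identical copies between which reads can be split.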

How the data were processed

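The deposited files were filtered matrices of raw UMI counts per gene and barcode, which the authors made with Cell Ranger 6.1.1, per the file headers, on mm10, per the submitters' processing notes. The labels name a Chromium 3′ v3 kit, and their protocol text speaks of nuclei. No source used here names the annotation release. Barcodes were filtered as in the report, and counts were summed per library and cell group and scaled to CPM. Log2 ratios have exact conditional binomial intervals, shares Clopper-Pearson intervals and CPM Poisson intervals, at 95%. Genes needed 20 UMIs over both libraries. A count of 0 against more than 3 was set to a floor of 3 UMIs.

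No doublet caller was run; the limit of 1 CD3 UMI and an alternative without cells over 2 times the median depth stand in its place. Named genes were Irf4, the sort genes, the rule and marker genes, Ifit3 and Ifit1bl1, the 12 highest and 12 lowest of each contrast at a mean of at least 100 CPM (without rule, mitochondrial, ribosomal, haemoglobin, antigen receptor and predicted genes), and in each list up to 4 members farthest from 0. Other list members (Rag1, Cd93, Isg15, Slfn2, Ciita, Klf2, S1pr1, Mcl1, Pax5, Irf8, Syk) and Ccl22 were chosen after their values were seen. Some genes that met the rule are not reported here. The members and all 37 lists were chosen with earlier results of these data known. Gene coordinates are from GENCODE M21 (GRCm38), in which 32158 of 32285 gene IDs matched. The calculations were tested on simulated data and used Python 3.11.15, numpy 2.4.6, scipy 1.17.1 and pandas 2.3.3. 15 alternatives were computed.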

Additional observations from a re-analysis of the deposited data

Results flagged for a closer look

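Cell division genes differed between the libraries in opposite directions in mature and in other B cells. For each gene given here, the counting intervals lay on opposite sides of 0. These intervals take each UMI as independent, but few cells held most of the UMIs. In the library labelled WT, 5 mature B cells held 127 of 138 Mki67 UMIs and 118 of 134 Top2a UMIs. All 26 Ube2c UMIs of that library lay in 4 mature B cells. As log2 ratios of the library labelled Irf4-/- over the library labelled WT, first in mature and then in other B cells, Ube2c had 3.07 and -1.05, Cenpf 2.40 and -1.46, Ccna2 2.31 and -1.77, Top2a 1.38 and -1.04, and Mki67 1.35 and -1.77. Hells had 1.21 and -0.48, Hmgb2 1.12 and -0.89, Pclaf 1.12 and -0.995, H2afx 1.07 and -1.02, and Hist1h2ap, which has near-identical copies, 1.001 and -0.55. The medians of the G2 and M phase list were 1.68 and -1.03 and those of the S phase list 0.61 and -0.29, with interquartile ranges on opposite sides of 0. Dividing cells, Irf4-/- library first, were 26 and 10 of the mature and 20 and 37 of the other B cells. Counted by cells, the intervals of these shares were 4.83% to 10.5% and 1.11% to 4.21% in mature B cells. In other B cells they were 2.93% to 7.24% and 5.73% to 10.9%, which overlap, so by cells the opposite order there is not clear. Dividing cells were deeper than the rest, and mature and other B cells were split by UMI counts. The part of that split in the opposite directions was not tested.

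Antigen presentation genes differed in the opposite sense. H2-Aa had -0.26 in mature and 1.497 in other B cells, H2-Eb1 -0.23 and 1.45, and the MHC class II list medians were -0.12 and 0.86. Ltb, the lymphotoxin gene, had -0.36 and 0.47. None of these differences between cell groups was tested, since each genotype had 1 library.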

How the results depend on the processing

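No paired analysis was possible because each genotype had 1 library. Of 151 named gene ratios under 15 alternatives, 1877 values stayed within the counting interval of the reported one, 169, in 74 genes, fell outside it, and 15, in 11 genes whose reported interval leaves out 0, changed sign. In 12 genes whose interval includes 0, 36 values had the other sign. Of 19 lists beside the G2 and M, interferon, follicular and MHC class II lists, 280 values stayed and 4, of the S phase and receptor signalling lists, moved. The cause of each move was not tested, except where fewer genes or cells entered.

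Shares of mature B cells (Irf4-/- first, then WT, as labelled) were 3.47% and 2.60% with a stricter cell filter, 45.8% and 48.5% of Cd79a-positive cells within the CD3 and surrogate light chain limits, 1.27% and 1.58% under the rule on thinned cells, and 2.95% and 2.44% with Fcer2a of at least 2 or Ighd of at least 3. Genes at least 2-fold higher between libraries were 596 with a minimum of 10 UMIs, 138 with 50, 191 after thinning, 155 without genes higher in CD3-positive cells and 246 without dividing cells. Those lower were 279, 51, 152, 59 and 155 in the same order. Of all genes past 2-fold 71.1% were higher, against 55.7% after thinning and 61.1% in Fcer2a-positive cells only (322 higher and 205 lower). Only 30 of the 191 and 26 of the 152 genes after thinning were among the main ones. Genes higher in mature than in other B cells were 100 with 10 UMIs, 34 with 50 and 35 after thinning. Those lower were 54 with 50 UMIs, 64 after thinning and 169 with Fcer2a-positive cells only. The MHC class II median was -0.026 after thinning, -0.024 without cells over 2 times the median depth and -0.035 without dividing cells, and the G2 and M phase median was 4.12 in Fcer2a-positive cells only, of which 10 and 1 were dividing. That list could not be given without dividing cells or without deep cells, where under 3 members kept 20 UMIs. The S phase median was 0.30 after thinning, 0.23 without dividing cells and 1.24 in Fcer2a-positive cells. The strict light chain call gave kappa shares of 62.1% and 23.1%.

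Without cells over 2 times the median depth, and then without dividing cells (chosen after seeing the data), H2afx had -0.30 and -0.31, Hist1h2ap -0.66 and -0.76, and Hmgb2 -0.30 and -0.41. After thinning, Coq7 had 0.28, Hspd1 -0.070, Ms4a4c -0.096, Ndufc1 -0.088 and Tap1 -0.10. In Fcer2a-positive cells only, Igkc had -0.090 and Vpreb3 -0.37. Iglc3 had 0.050 as a mean of cell CPM and 0.0058 without deep cells. Removing the haemoglobin-rich cell and weighting the entry routes equally were also chosen after seeing the data. Depth limits the low genes: a gene absent from a group of this size is known only to be under 3 UMIs.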
